A study of Mus musculus with 20 samples.

Results

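The RNA of mouse duodenum was compared with that of mouse liver on 8 arrays, chosen as those whose titles name either tissue, out of 20 arrays in all. Both tissues came from C57BL6/J mice of both sexes that ate an iron-poor diet (under 10 mg iron per kg), given over 21 days after weaning, and the labels name no genetic change. For each tissue, total RNA of 4 mice was pooled, and 50 µg of it went into each precipitation reaction. The IRP2 reactions held recombinant, His-tagged iron regulatory protein 2 made in E. coli, and an antibody to the tag brought the protein down with the RNA it held. The control reactions ran in parallel without IRP2. About 120 ng of recovered RNA per reaction was amplified in 2 cycles and hybridised to an Affymetrix whole-genome mouse array. Each tissue had 2 IRP2 arrays (replicates 1 and 2) and 2 control arrays (replicates 1 and 2), which gave 4 arrays per tissue. The values therefore describe RNA recovered from the reactions and not the input RNA. The labels do not say whether the replicates of a tissue came from separate pools of mice, so the p-values below measure only the spread between these arrays, which may be technical.

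Liver and duodenum share an origin in the gut endoderm and a set of transcription factors of the HNF family. Hepatocytes, the main cells of the liver, secrete most proteins of blood plasma, make urea and bile acids and break down amino acids and drugs. The duodenal lining is renewed from dividing crypt cells and holds absorptive enterocytes with a brush border, mucus-secreting goblet cells, antimicrobial Paneth cells and hormone-secreting enteroendocrine cells. Duodenal enterocytes take up dietary iron, and the liver senses body iron and secretes its hormone, hepcidin. In whole-tissue RNA, fewer cells of a type and less RNA per cell cannot be told apart.

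All values are the deposited log2 expression values of probe sets, and a difference of 1 is a 2-fold difference. Differences are duodenum minus liver from a limma fit with the reaction as a covariate, given ± the standard error, from 4 arrays per tissue, with p-values adjusted by Benjamini-Hochberg over all 23478 probe sets tested. This fit took the 4 arrays of a tissue as independent, but same-numbered IRP2 and control arrays deviated together (correlation 0.700 in duodenum and 0.620 in liver). For genes that split by replicate number, the standard errors and adjusted p-values are therefore too small. Each gene is represented by its brightest probe set, and where other tested probe sets of a gene gave another call this is said. Other probe sets with the same call could differ much in size, as for Tfr2 (-7.84 against -3.31) and Colec11 (-2.19 against -7.79). A gene was called higher in one tissue when the adjusted p was under 0.05 and the difference was at least 2-fold. Where the values of single arrays are listed, their order is IRP2 replicate 1, IRP2 replicate 2, control replicate 1 and control replicate 2.

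The 8 arrays had medians between 5.65 and 5.71. Spearman correlations over probe sets were 0.980 to 0.992 within duodenum, 0.986 to 0.992 within liver and 0.906 to 0.930 between the tissues. The arrays fitted their labels by defining markers. Albumin (Alb), the main plasma protein, was at 14.06 to 14.28 on the liver arrays and at 5.80 to 6.60 on the duodenum arrays. Villin (Vil1), which bundles actin in the brush border, was at 11.21 to 11.90 in duodenum and at 5.06 to 6.87 in liver.

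The liver arrays of replicate 2 stood apart in carrying more signal of intestinal genes than those of replicate 1, in the IRP2 and the control reaction alike. Prap1, a secreted protein of the gut lining, was at 4.22, 10.48, 4.48 and 10.46 on the liver arrays and at 13.40, 13.73, 13.22 and 13.82 on the duodenum arrays. The Paneth and enterocyte lectin Reg3b was at 3.84, 7.62, 4.18 and 7.46 in liver. The goblet cell lectin Zg16 was at 7.52, 10.49, 8.17 and 10.63, and intestinal alkaline phosphatase (Alpi) at 5.76, 8.01, 5.11 and 7.96. Prap1, Zg16 and Alpi were picked as examples after their values were seen. In each case both arrays of replicate 2 lay above both of replicate 1. Both replicate 2 arrays exceeded both replicate 1 arrays by at least 2-fold for 49 genes, 0.386% of the 12696 tested, and 45 of the 49 were called higher in duodenum, as were 11.8% of all tested genes. The reverse order held for 4 genes. Among the 175 genes at least 16-fold higher in duodenum, replicate 2 exceeded replicate 1 in liver by a median of 0.60, against 0.04 over all tested genes. The 14 tested genes of pancreas acinar cells, all above the array median in duodenum, did not show this: their median was 0.08, and the elastase gene Cela3b was at 6.22, 6.18, 5.82 and 6.005 on the liver arrays. On the duodenum arrays the plasma proteins had a median replicate 2 minus replicate 1 of -0.18, and 28 genes (0.221% of those tested) were at least 2-fold higher on both replicate 2 arrays. The 175 genes above were also higher on duodenum replicate 2, by a median of 0.485 against 0.106 over all tested genes. Of the 175, 2 were at least 2-fold higher on both replicate 2 arrays in duodenum, and 45 in liver. The origin of the intestinal signal on the liver arrays was not tested. Without both liver replicate 2 arrays the difference of Prap1 went from 6.13 to 9.19, and such values are given below beside the results they move most.

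**Figure D1:**
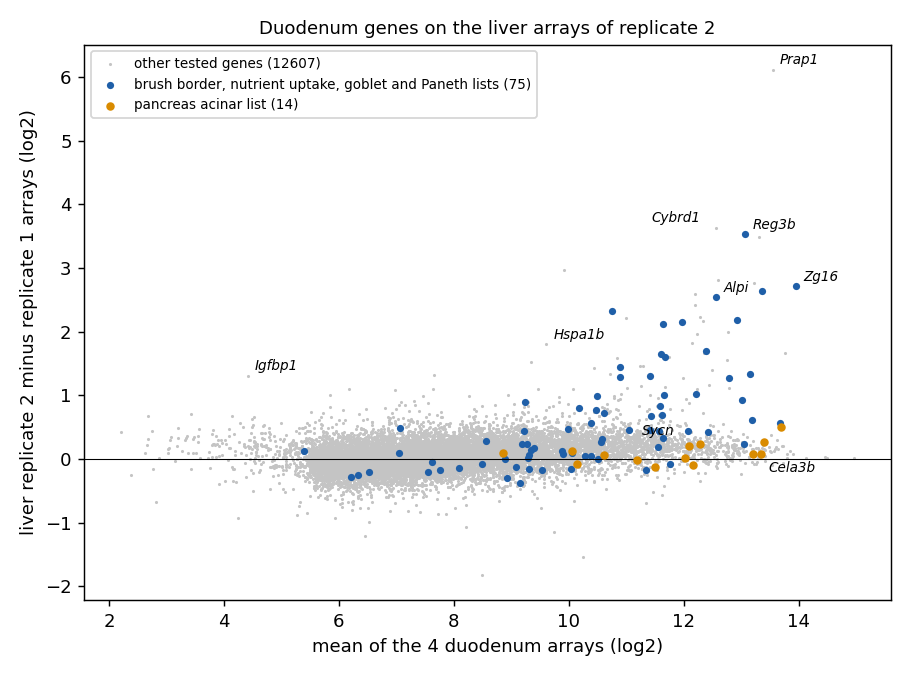
Each point is a tested gene, with its mean on the 4 duodenum arrays on the horizontal axis and the liver replicate 2 mean minus the replicate 1 mean on the vertical axis (both log2; each liver mean covers the IRP2 and the control array). Genes of the brush border, nutrient uptake, goblet and Paneth lists reach up to 3.53 (Reg3b), while the 14 pancreas acinar genes lie between -0.13 and 0.51.

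The tissues differed at a large share of the probe sets. Of 23478 tested probe sets, 2494 (10.6%) were called higher in duodenum and 1909 (8.13%) higher in liver. By gene, 1493 of 12696 (11.8%) were higher in duodenum and 1175 (9.25%) higher in liver. The median difference over all tested genes was 0.02, so that list medians below can be read against a value near 0. All 4 duodenum arrays lay above all 4 liver arrays for 3435 genes (27.1%), and the reverse held for 2556 (20.1%). Of the genes tested, 79 were at least 64-fold higher in liver and 31 at least 64-fold higher in duodenum. Without both liver replicate 2 arrays these counts were 77 and 60, with 1142 genes called higher in liver (8.99%) and 1586 higher in duodenum (12.5%). Of the original calls, 1448 of 1493 and 1117 of 1175 were kept. For 363 genes higher in duodenum and 314 higher in liver, the lower tissue was below its array median, where the size of a difference is uncertain. Of the called genes, 1487 and 1174 had no overlap between the arrays of the 2 tissues, so overlap is stated below only where it occurred.

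The 15 genes with the largest excess in liver included plasma proteins and enzymes of the hepatocyte. Kininogen 1 (Kng1), the precursor of bradykinin, was at 12.65, 13.05, 12.87 and 13.05 in liver and at 3.93, 2.90, 2.92 and 3.57 in duodenum, a difference of -9.58 ± 0.23 (adjusted p = 4.67e-10). Bhmt, which remethylates homocysteine to methionine, was at 13.36, 13.42, 13.17 and 13.30 against 3.94, 4.22, 4.56 and 4.45 (-9.02 ± 0.14). The fibrinogen chains differed by -8.45 for Fga, -8.44 for Fgb and -8.89 for Fgg. In duodenum Kng1, Bhmt and the fibrinogen chains lay below the array median, so the sizes of their differences are uncertain. Hemopexin (Hpx), which binds free heme in plasma, differed by -8.57 ± 0.13, the ethanol-oxidising Cyp2e1 by -8.53 ± 0.14, and arginase 1 (Arg1), which releases urea, by -8.38 ± 0.15. The other members of the leading 15 were Slco1b2, Bhmt2, Cyp2c37, Apof, Akr1c6, Wfdc21 and Alb, between -8.37 and -7.95. The duodenum means of Hpx, Cyp2e1, Arg1, Slco1b2 and Cyp2c37 also lay below the array median, so these sizes are uncertain too. Other probe sets gave -5.92 for Kng1, -6.49 for Bhmt2 and -6.785 for Slco1b2, and another of Slco1b2 was not called (-0.16).

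The leading genes of duodenum included genes known from acinar, Paneth and absorptive cells. Syncollin (Sycn), a zymogen granule protein of pancreas acinar cells, was at 12.13, 11.95, 12.35 and 11.89 in duodenum and 4.62, 4.72, 4.76 and 5.05 in liver, a difference of 7.30 ± 0.13 (adjusted p = 8.62e-11). Cela3b, also of acinar cells, followed with 7.29 ± 0.11, and carboxypeptidase B1 (Cpb1) with 7.16 ± 0.16. Reg3b was at 13.16, 13.01, 12.99 and 13.09 in duodenum, and its difference of 7.29 ± 0.81 became 9.05 without both liver replicate 2 arrays. The Paneth cell ribonuclease Ang4 was at 12.13, 12.67, 12.002 and 12.74 in duodenum and 4.34, 6.15, 4.49 and 6.06 in liver (7.12 ± 0.42, or 7.97 without those arrays). Adenosine deaminase (Ada) differed by 6.89 ± 0.50, mitochondrial creatine kinase (Ckmt1) by 6.84 ± 0.56 and the membrane mucin Muc3 by 6.49 ± 0.66. Without the same arrays these became 7.88, 8.04 and 7.89. The rest of the leading 15 were Cybrd1, Reg1, Clca1, Cyp2c65, Olfm4, Clca4b and Pnliprp2, from 6.91 down to 6.46. Of these, Cybrd1 and Reg1 were 8.73 and 8.46 without both liver replicate 2 arrays. The liver means of Sycn, Ang4, Ckmt1, Cybrd1, Clca1, Cyp2c65, Olfm4, Clca4b and Pnliprp2 lay below the array median. The sizes of those differences are uncertain. Sizes also depended on the probe set. Other probe sets gave 2.27 for Ang4, 3.34 for Ckmt1, 3.59 for Cybrd1, 5.85 for Reg3b, 6.18 for Sycn and 6.90 for Pnliprp2. Those of Cela3b gave 8.67, 7.57 and 3.66.

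**Figure D2:**
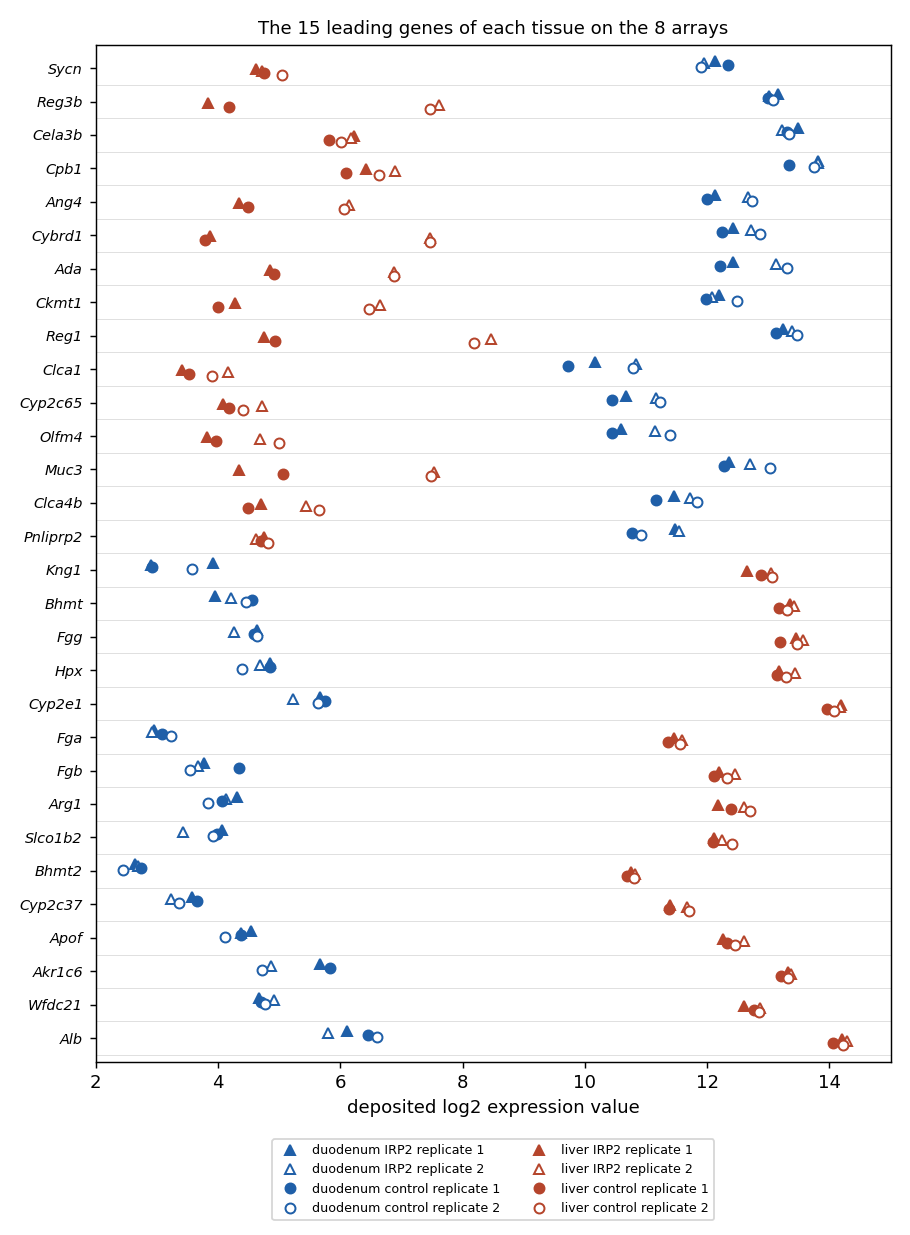
Deposited log2 values (horizontal axis) of the 15 genes most in excess in duodenum (top) and in liver (bottom), 1 marker per array: blue for duodenum, red for liver, triangles for IRP2 and circles for control reactions, filled for replicate 1 and open for replicate 2. The tissues do not overlap for any of the 30 genes, which the rule that picked them required. For Reg3b, Cybrd1, Reg1 and Muc3 the open liver markers lie to the right of the filled ones.

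Plasma proteins were higher in liver without exception among those tested. Of 24 listed, 22 were measured and tested, and all 22 were called higher in liver, where 9.25% of all tested genes were, with a median difference of -6.84 and a range from -9.58 to -4.52. In duodenum 10 of the 22 lay below the array median, where the size of a difference is uncertain. Albumin was at 14.21, 14.28, 14.06 and 14.22 in liver and 6.11, 5.80, 6.46 and 6.60 in duodenum (-7.95 ± 0.15, adjusted p = 1.25e-10). Fetuin A (Ahsg), a carrier of calcium phosphate, differed by -6.44 ± 0.13, and haptoglobin (Hp), which binds free haemoglobin, by -7.34 ± 0.13. Transthyretin (Ttr), the carrier of thyroid hormone, was at 8.95, 9.59, 9.04 and 9.26 in duodenum, well above the array median, and at 14.33, 14.38, 14.24 and 14.32 in liver (-5.11 ± 0.14). Of the 23 tested genes of coagulation and complement, 21 were higher in liver and none higher in duodenum, with a median of -5.42. Of these 23, 12 lay below the array median in duodenum. Prothrombin (F2) differed by -6.04 ± 0.20 and the clotting factors F5, F7, F9 and F10 by -5.38, -5.42, -5.51 and -5.43. The remaining 2 were protein S (Pros1, -0.84 ± 0.11) and complement C6 (-0.77 ± 0.17), both with smaller values in duodenum but under 2-fold.

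Most tested genes of amino acid breakdown and of the urea cycle were higher in liver. For amino acid breakdown, 19 of 20 tested genes were higher in liver, against 9.25% of all tested genes, with a median of -5.50. In duodenum 11 of the 20 lay below the array median, where the size of a difference is uncertain. The histidine enzyme Uroc1 (-0.28 ± 0.11) was the member not called. Tdo2, which opens the tryptophan ring, was at 11.48, 11.71, 11.51 and 11.81 in liver and 4.20, 4.08, 4.39 and 4.37 in duodenum (-7.36 ± 0.12). Kmo, further along the same pathway, differed by -4.59 ± 0.12. The tyrosine enzymes Tat, Hpd, Hgd and Fah differed by -2.41, -5.87, -6.30 and -6.16, and Mat1a, which makes S-adenosylmethionine, by -6.44 ± 0.15. In the urea cycle, 6 of 8 tested genes were higher in liver. Carbamoyl phosphate synthetase (Cps1) was at 10.86, 11.22, 10.43 and 11.52 in duodenum and 12.27, 12.41, 12.21 and 12.37 in liver (-1.31 ± 0.21). Ornithine transcarbamylase (Otc) differed by -1.59 ± 0.16, argininosuccinate lyase (Asl) by -3.55 ± 0.11 and Arg1 by -8.38. The argininosuccinate synthetase gene Ass1 did not pass the filter on dim probe sets, at 3.14 to 3.30 in duodenum and 3.58 to 3.91 in liver. The ornithine carrier Slc25a15 was not called, at 12.22 to 12.85 in duodenum and 12.54 to 12.98 in liver.

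For bile acids, 14 of 18 tested genes were higher in liver, against 9.25% of all tested genes. They included the sodium-dependent uptake carrier Slc10a1 (-4.87 ± 0.13), the uptake carrier Slco1b2 and the synthesis enzymes Cyp8b1 (-3.55), Cyp27a1 (-3.40), Cyp7b1 (-3.05) and Hsd3b7 (-3.29). The rate-limiting enzyme Cyp7a1 was at 7.84, 8.38, 8.11 and 8.75 in liver and 7.49, 7.22, 7.29 and 7.10 in duodenum, and its -0.99 ± 0.19 stayed just under 2-fold, though it passed on the control arrays alone (-1.24). The basolateral bile acid exporter subunits ran the other way: Slc51a was at 7.90, 9.29, 7.64 and 9.11 in duodenum and 5.39, 5.45, 5.79 and 5.82 in liver (2.87 ± 0.35), and Slc51b differed by 1.04 ± 0.11, a call that the control arrays alone did not give. Slc10a2, Fabp6 and Fgf15, which serve bile acid uptake and signalling further down the gut, did not pass the filter on dim probe sets, at 2.64 to 2.84, 2.95 to 3.14 and 5.27 to 5.83 in duodenum.

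Of the 14 tested genes of glucose output and glycogen, 10 were higher in liver, against 9.25% of all tested genes. Phosphoenolpyruvate carboxykinase (Pck1), an early step of gluconeogenesis, was at 9.80, 10.01, 9.76 and 9.81 in liver and 2.94, 3.77, 2.76 and 3.63 in duodenum (-6.57 ± 0.22), and glycogen phosphorylase (Pygl) differed by -5.77 ± 0.10. Glucose-6-phosphatase (G6pc), the last step of glucose release, split by replicate number: it was at 7.76, 10.24, 7.49 and 10.24 in duodenum and 10.93, 12.01, 11.24 and 12.16 in liver. Its difference was -2.65 ± 0.64 (adjusted p = 0.00701), in a fit that took the 4 arrays of a tissue as independent. The difference was -2.15 and no longer called without both liver replicate 2 arrays. Fbp1 (-1.71 ± 0.29) and Pcx (-1.88 ± 0.15), other steps of gluconeogenesis, were called too. The glucose carrier Slc2a2 (0.27 ± 0.25) and the pyruvate kinase Pklr (-0.23 ± 0.14) overlapped between the tissues and were not called.

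Cytochrome P450 genes of drug metabolism divided between the tissues, with 12 of 20 tested higher in liver and 5 higher in duodenum. Of all tested genes, 9.25% and 11.8% were. Cyp2e1 was at 14.18, 14.18, 13.96 and 14.07 in liver and 5.67, 5.23, 5.75 and 5.63 in duodenum. Cyp1a2 (-4.34), Cyp2a12 (-4.40), Cyp2c29 (-5.78) and Cyp2c50 (-5.56) followed on the liver side. Cyp2c65 was at 10.67, 11.16, 10.45 and 11.22 in duodenum and 4.08, 4.72, 4.18 and 4.41 in liver (6.53 ± 0.20). Cyp3a13 (1.81), Cyp4b1 (1.29) and Cyp4f14 (1.13) were higher in duodenum and above the array median in both tissues. Cyp2b10 was at 6.87, 9.09, 7.44 and 8.67 in duodenum and 7.06, 6.23, 7.05 and 6.33 in liver, with overlap, and its 1.35 ± 0.45 lost the call without both liver replicate 2 arrays, at 0.96. On the control arrays alone, Cyp2b10 (1.37) and Cyp4f14 (1.05) were not called and Cyp2c55 (1.25) was.

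Of 19 tested genes of cholesterol synthesis, 13 were higher in liver, against 9.25% of all tested genes, and none higher in duodenum, with a median of -1.22. Pmvk differed by -2.08 ± 0.13, Fdps by -1.81 ± 0.12 and Idi1 by -1.14 ± 0.23, or -0.96 and not called without both liver replicate 2 arrays. The early enzymes Hmgcs1 (-0.91 ± 0.19) and Mvk (-0.03 ± 0.10) were not called, but the 3 other tested probe sets of Hmgcs1 were called higher in liver (-1.12, -1.09 and -1.35). For fatty acid oxidation and ketone synthesis, 7 of 15 tested were higher in liver, with a median of -0.90. Cpt1a, the entry step of mitochondrial oxidation, differed by -1.44 ± 0.18, Acadm by -1.23 ± 0.13 and the ketone enzyme Bdh1 by -1.07 ± 0.13. Cpt2 was not called (-0.08 ± 0.18).

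Most tested genes of the absorptive surface were higher in duodenum. Of 13 tested brush border hydrolases, 8 were called higher there, where 11.8% of all tested genes were, and none was higher in liver, with a list median of 2.10. Lactase (Lct), which splits milk sugar, was at 10.70, 12.12, 10.57 and 12.23 in duodenum and 5.39, 6.57, 5.22 and 6.66 in liver. Its difference was 5.44 ± 0.47 (adjusted p = 5.4e-06), or 6.10 without both liver replicate 2 arrays, and replicate 2 was the higher one in both tissues. Maltase-glucoamylase (Mgam) was at 13.05, 13.22, 12.93 and 13.53 against 9.18, 9.94, 9.54 and 9.99 (3.52 ± 0.20). Trehalase (Treh) differed by 4.92 ± 0.23, and Alpi by 5.85 ± 0.61, or 7.12 without those liver arrays. The peptidases Dpp4 (-0.35 ± 0.12), Enpep (-0.99 ± 0.14) and Mep1a (0.97 ± 0.15) were not called. For Enpep the 4 liver arrays lay above the 4 duodenum arrays, and on the control arrays alone it was called higher in liver (-1.05). Among 22 tested genes of brush border structure and junctions, 18 were higher in duodenum, with a median of 3.99. Vil1 differed by 5.64 ± 0.41, the microvillus motor Myo1a by 5.21 ± 0.37 and the microvillus cadherin Cdhr2 by 5.11 ± 0.43. Without both liver replicate 2 arrays these were 6.46, 5.93 and 5.91. Epcam, an adhesion protein of epithelia, was not called by its brightest probe set (0.51 ± 0.16), but its other probe set was at a mean of 12.3 in duodenum and 6.26 in liver and was called higher in duodenum (6.04 ± 0.33, adjusted p = 1.57e-07).

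Carriers for nutrients followed, with 18 of 22 tested genes higher in duodenum, against 11.8% of all tested genes, and 1 higher in liver (median 3.12). The sodium-glucose carrier Slc5a1 was at 12.70, 13.03, 12.63 and 13.29 in duodenum and 6.08, 8.27, 6.19 and 8.36 in liver, a difference of 5.69 ± 0.52, or 6.78 without both liver replicate 2 arrays. The peptide carrier Slc15a1 was at 8.37, 9.23, 7.84 and 8.79 against 2.77, 3.04, 2.77 and 3.08 (5.64 ± 0.25), and this gene differed little between the liver arrays. The amino acid carriers Slc6a19 and Slc6a20a differed by 2.53 and 5.57, and the fructose carrier Slc2a5 by 2.20 ± 0.22. The member higher in liver was the vitamin C carrier Slc23a1 (-1.69 ± 0.10).

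Short stretches of promoter are shown for 2 genes of each tissue, chosen as the first listed plasma proteins and brush border hydrolases that were called and held one of the motifs searched, and each stretch holds the match nearest the start of transcription. They are 30 bases of the strand of the gene, from RefSeq with the build GRCm38.p6, and capitals mark the motif. The Alb stretch (chr5:90460826-90460855, plus strand) holds GTTAAT, the motif searched for HNF1, which ends 26 bases before the start. The Ahsg stretch (chr16:22891811-22891840, plus strand) holds the GATA motif TGATAA on the other strand, 186 bases before the start. The Lct stretch (chr1:128328332-128328361, minus strand) holds the CDX motif TTTATG on the other strand, 25 bases before the start, and the Mgam stretch (chr6:40628677-40628706, plus strand) holds the CDX motif TTTATT, 136 bases before it.
Alb: gaggtaagtatgGTTAATgatctacagtta
Ahsg: ctctctctgctgTTATCAccatgttccagg
Lct: cttggctgtgctCATAAAgtcaggattcct
Mgam: cagatgcagagtTTTATTatgaacacgtga

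The motifs were looked for on both strands in the 250 bases before each RefSeq start of the tested genes, 13054 promoters of 10241 genes. GTTAAT was in 8.66% of 1201 promoters of genes higher in liver, in 5.2% of 1558 promoters of genes higher in duodenum and in 4.49% of all. The HNF4 motif CAAAGTCCA was in 1.25%, 0.963% and 0.490%, in the same order. TTTATG was in 7.91%, 7.70% and 6.56%, TTTATT in 14.8%, 11.7% and 11.3%, and TGATAA in 5.75%, 5.97% and 4.24%. At least 1 of the 5 motifs was in the promoter of 8 of 15 called plasma proteins. For called brush border hydrolases it was 5 of 7. Both counts cover only list members with a promoter in the table outside chr18. On any chromosome, the share was 31.4% of genes higher in liver, 24.7% of genes higher in duodenum and 22.3% of all tested genes with a promoter. The gene's first promoter in the table was read. TTTATG and TTTATT differ in their last letter only. These matches describe letters and no binding.

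Most tested transcription factors known for intestine were higher in duodenum, and those known for liver were divided. Of all tested genes, 11.8% were higher in duodenum and 9.25% higher in liver. Of 15 tested intestinal factors, 12 were higher in duodenum and none higher in liver, with a median of 2.19. The caudal factor Cdx2, which sets intestinal identity, was at 9.37, 9.01, 8.96 and 9.54 in duodenum and 6.06, 6.18, 5.88 and 6.17 in liver (3.15 ± 0.15). Cdx1 differed by 1.06 ± 0.11, and the GATA factors Gata5 and Gata6 by 2.48 and 1.32. Gata4, at 0.89 ± 0.11, was not called. Hnf4g was at 9.12, 9.61, 8.99 and 9.68 in duodenum and 3.04, 4.35, 2.67 and 4.41 in liver (5.73 ± 0.39, or 6.49 without both liver replicate 2 arrays). Its relative Hnf4a was at 11.37, 11.96, 11.27 and 11.69 in duodenum and 11.49, 11.84, 11.60 and 11.82 in liver, overlapped and was not called, with a difference of -0.11 ± 0.17. Of 15 tested liver factors, 9 were higher in liver, among them Cebpa (-2.41 ± 0.15), Cebpb (-1.66 ± 0.13) and Foxa3 (-1.21 ± 0.15). Tbx3 (1.61) and Esrra (1.5) of the same list were higher in duodenum, and Foxa1 was not called (-0.30 ± 0.22). The second probe sets of Gata6 (-0.05 ± 0.12) and Hnf4g (0.71 ± 0.19) were not called.

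Most tested genes of the secretory cells of the gut lining were higher in duodenum, as were 11.8% of all tested genes. All 8 tested Paneth cell genes, of 12 listed, and 8 of 10 goblet cell genes were higher in duodenum. The defensin genes of the Paneth list (Defa24, Defa17, Defa21 and Defa22) had no probe set with 1 symbol and were not measured. The mucin Muc2 was at 10.20, 10.21, 9.82 and 10.46 in duodenum and 5.22, 5.76, 4.80 and 5.87 in liver (4.76 ± 0.24), trefoil factor 3 (Tff3) differed by 4.98 ± 0.27 and Clca1 by 6.63 ± 0.26. Zg16 differed by 4.74 ± 0.63, or 6.10 without both liver replicate 2 arrays. The Paneth lectin Itln1 differed by 5.83 ± 0.61, or 7.16, and the lysozyme Lyz1 by 2.40 ± 0.18. The goblet cell factor Spdef was not called, at 0.20 ± 0.12. Reg3g, an antibacterial lectin, varied within duodenum, at 11.25, 9.39, 10.83 and 9.64, and was higher on both replicate 1 arrays. Of 11 tested enteroendocrine genes, 9 were higher in duodenum. The incretin Gip was at 11.42, 11.36, 10.70 and 11.17 against 5.71, 6.06, 5.41 and 5.82 (5.41 ± 0.15), cholecystokinin (Cck) differed by 3.71 ± 0.22 and secretin (Sct) by 1.24 ± 0.15. Chromogranin B (Chgb), a granule protein of these cells, differed by 5.75 ± 0.39 (6.54 without those liver arrays) and somatostatin (Sst) by 1.56 ± 0.19. The 4 tested tuft cell genes had differences from -0.13 to 0.46 and were not called, although another probe set of Dclk1 was higher in duodenum (1.12 ± 0.16, adjusted p = 0.000281).

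Most tested genes of cell division were higher in duodenum, as were 11.8% of all tested genes. Of 21 tested cell division genes, 17 were higher in duodenum and none higher in liver (median 1.86). For all 21 the 4 duodenum arrays lay above the 4 liver arrays, against 27.1% of all tested genes. For members dim on all 4 liver arrays, such as Plk1 (5.16 to 5.60), the filter on dim probe sets largely fixed that order. The proliferation marker Mki67 was at 10.56, 11.02, 10.33 and 10.91 in duodenum and 7.01, 7.49, 7.16 and 7.36 in liver (3.45 ± 0.17), and topoisomerase Top2a differed by 3.54 ± 0.22. The cyclins Ccna2 and Ccnb2 differed by 2.48 and 1.91 and their kinase Cdk1 by 1.85 ± 0.13. The 4 not called were Bub1b, Plk1, Mcm3 and Hmmr, and Plk1 was called without both liver replicate 2 arrays (1.01). Crypt stem cell genes were mixed, with 4 of 8 higher in duodenum. Olfm4 was at 10.60, 11.15, 10.44 and 11.39 against 3.83, 4.69, 3.97 and 4.998 (6.52 ± 0.29), and Smoc2, Axin2 and Prom1 differed by 1.39, 1.20 and 2.99, while the stem cell receptor Lgr5 was near the array median in both tissues (5.42 to 5.86 and 5.67 to 5.97), overlapped and was not called.

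The duodenum arrays also held signal of genes that mark pancreas acinar cells. All 14 tested acinar genes were higher in duodenum, against 11.8% of all tested genes, with a median difference of 5.38, the largest of the 34 lists in that direction. The mean of the 14 was 11.6 to 11.9 on the duodenum arrays and 6.37 to 6.60 on the liver arrays, and none was below the array median in duodenum. Cpb1 was at 13.82, 13.81, 13.34 and 13.75, Cela2a at 13.24, 13.53, 13.14 and 13.62, and carboxypeptidase A1 (Cpa1) at 12.14, 12.28, 11.65 and 11.97 in duodenum. The same genes were at 6.10 to 6.90, 7.28 to 7.67 and 5.70 to 6.08 in liver. Replicate 2 differed from replicate 1 in duodenum by a median of 0.09 for the acinar list. Trypsinogen 2 (Prss2) was above the array median in both tissues (11.74 to 12.37 and 11.04 to 11.16), and its call at 1.04 ± 0.14 was lost without both liver replicate 2 arrays, where the value lay just under 1. The high liver level belonged to that probe set: the 3 others had liver means of 4.83, 6.55 and 6.30 and were called higher in duodenum by 7.66, 5.198 and 5.68. Of the genes of neighbouring tissue, Tff2 (5.79 ± 0.20) and Ctrl (5.86 ± 0.12) were the 2 of 5 tested members of the Brunner gland list called. Ctrl is a pancreas protease, and Tff1, Aqp5 and Muc5b of that list were not called. Gastrokine 1 (Gkn1), made by the stomach lining, was at 9.66, 10.83, 9.73 and 10.99 in duodenum and 5.02, 4.91, 4.78 and 4.99 in liver (5.38 ± 0.29). It was 1 of 2 calls among 6 tested muscle and stomach genes, and the other, Gkn2 (1.02 ± 0.14), was lost at 0.94 without both liver replicate 2 arrays. Atp4b and Pgc, of the acid and pepsinogen cells, and Ckm, of skeletal muscle, were not called. The part of pancreas or stomach RNA in the other differences was not tested.

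**Figure D3:**
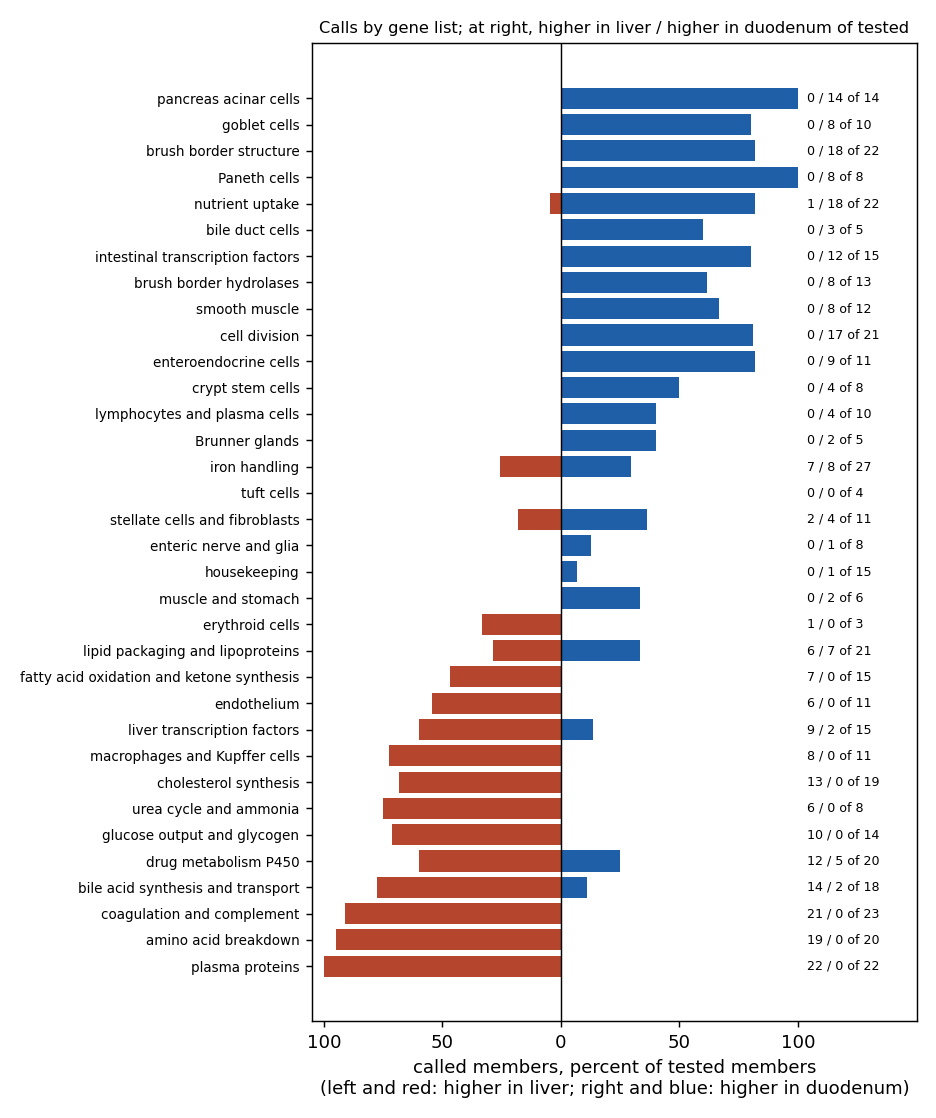
Share of the tested members of each of the 34 gene lists that were called higher in duodenum (blue, to the right) or higher in liver (red, to the left), in percent, ordered by the median difference of the list, with the counts at the right edge. Plasma proteins (22 of 22) and pancreas acinar genes (14 of 14) are the ends of the order, and housekeeping genes have 1 call among 15.

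Lists of other cell types split between the tissues. Of all tested genes, 11.8% were called higher in duodenum and 9.25% higher in liver. Of 11 tested macrophage genes, 8 were higher in liver, led by the Kupffer cell genes Cd5l (-6.08 ± 0.12), Vsig4 (-4.86 ± 0.17) and Clec4f, which was at 9.53, 9.80, 9.80 and 9.91 in liver and 5.68, 5.59, 6.46 and 5.92 in duodenum (-3.85 ± 0.15). C1qb and Adgre1, general macrophage genes, lost their calls without both liver replicate 2 arrays, at -0.91 and -0.94. Of 11 endothelial genes, 6 were higher in liver, with the sinusoid genes Clec4g (-4.31 ± 0.13) and Stab2 (-3.90 ± 0.12) first. Of 12 smooth muscle genes, 8 were higher in duodenum, such as Myh11 (2.76 ± 0.21), Actg2 (2.72 ± 0.26) and Acta2 (2.11 ± 0.17), while desmin (Des) was not called (-0.17 ± 0.22). Of 11 stellate cell and fibroblast genes, Col1a1, Col1a2, Col3a1 and Pdgfra were higher in duodenum, with 1.26 ± 0.13 for Col1a1. The lectin Colec11 (-7.79 ± 0.11) and reelin (Reln, -3.23 ± 0.12) were higher in liver. Of 10 lymphocyte and plasma cell genes, 4 were higher in duodenum. The antibody joining chain Jchain was at 12.70, 12.88, 12.62 and 12.95 against 6.83, 7.89, 7.01 and 8.18 (5.31 ± 0.28), and the others were Gzma, Itgae and Ptprc, of which Ptprc was not called on the control arrays alone (0.92). The T cell genes Cd3e, Cd4 and Cd8a were not called. Vip (3.56 ± 0.17) was the single call among 8 enteric nerve and glia genes, a share near that of all tested genes. The bile duct list had 3 calls in 5, all higher in duodenum, for Krt19 (5.63), Krt7 (2.38) and Cftr (5.98, or 6.65 without both liver replicate 2 arrays), which the gut lining also makes. Among 7 measured erythroid genes, Alas2 was the single call, and Hba-a1, Slc4a1, Epb42 and Rhag were below the filter in both tissues.

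Iron genes fell on both sides. Of 27 tested, 8 were higher in duodenum and 7 higher in liver, with a median of 0.24. Of all tested genes, 11.8% and 9.25% were. The genes Cybrd1, Slc11a2 and Heph, which serve iron uptake by the enterocyte, were higher in duodenum. The ferric reductase Cybrd1 was at 12.43, 12.71, 12.24 and 12.87 in duodenum and 3.86, 7.46, 3.79 and 7.47 in liver, and its difference of 6.91 ± 0.84 (adjusted p = 7.03e-05) became 8.73 without both liver replicate 2 arrays. The ferrous iron carrier Slc11a2 was at 12.54, 12.56, 10.62 and 10.90 against 9.14, 9.58, 7.12 and 7.36, and the IRP2 arrays were the higher ones in each tissue. Its difference was 3.35 ± 0.14, or 3.52 on the control arrays alone. Hephaestin (Heph), the membrane-bound ferroxidase of the gut, was at 10.78, 11.32, 10.26 and 11.06 against 4.38, 5.25, 4.32 and 4.99 (6.12 ± 0.25). Ceruloplasmin (Cp), the plasma ferroxidase, was at 6.30, 6.30, 6.35 and 6.34 in duodenum and 12.36, 12.93, 12.45 and 12.92 in liver (-6.34 ± 0.15). The exporter Slc40a1 was at 13.28, 13.48, 12.94 and 13.43 and 12.63, 12.81, 11.89 and 12.06 in duodenum and liver, without overlap. Its 0.94 ± 0.16 missed 2-fold, but it was called on the control arrays alone (1.22) and without both liver replicate 2 arrays (1.02). Its other probe set was called higher in duodenum on all arrays (2.47 ± 0.16, adjusted p = 5.75e-07).

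Genes by which the hepatocyte senses iron were among those higher in liver. Transferrin receptor 2 (Tfr2) was at 11.06, 11.15, 11.08 and 11.18 against 7.81, 7.61, 8.15 and 7.68 (-3.31 ± 0.13), the protease Tmprss6 differed by -3.17 ± 0.14 and hemojuvelin (Hjv) by -2.40 ± 0.18. Hfe differed by -1.11 ± 0.12 and was not called without both liver replicate 2 arrays (-0.99). The hepcidin gene Hamp lay near the array medians on all 8 arrays, at 6.25, 6.16, 6.004 and 5.91 in liver and 5.44, 5.26, 5.48 and 5.21 in duodenum, and was not called (-0.73 ± 0.12). Its copy Hamp2 differed by -1.34 ± 0.14, and the near-identical copies may share signal. Id1 and Smad7, targets of the BMP signal that induces hepcidin, were higher in duodenum, with 2.49 ± 0.12 for Id1 and 1.25 ± 0.17 for Smad7. The other members higher in duodenum were the ferritin receptor Ncoa4 (2.46 ± 0.26), the zinc carrier Slc39a4 (1.69 ± 0.26) and the exporter Abcg2 (1.38 ± 0.17).

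For some iron genes the IRP2 and the control arrays lay apart. Transferrin receptor 1 (Tfrc) was at 13.54, 13.72, 11.35 and 12.01 in duodenum and 13.48, 13.68, 10.55 and 11.05 in liver, with the IRP2 arrays of both tissues above the control arrays and no call between tissues (0.47 ± 0.21, adjusted p = 0.11). Ferritin heavy chain (Fth1) was at 14.09, 14.20, 13.25 and 13.86 in duodenum and 13.96, 14.03, 12.72 and 12.90 in liver, with overlap between the tissues and no call (0.45 ± 0.17). For Alas2, which starts heme production in developing red cells, the liver values were 9.87, 9.37, 7.64 and 7.33 and the duodenum values 7.14, 7.07, 7.16 and 6.75. The liver excess of -1.52 ± 0.35 was largest on the 2 IRP2 arrays, and on the control arrays alone the difference was -0.53 and not called.

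**Figure D4:**
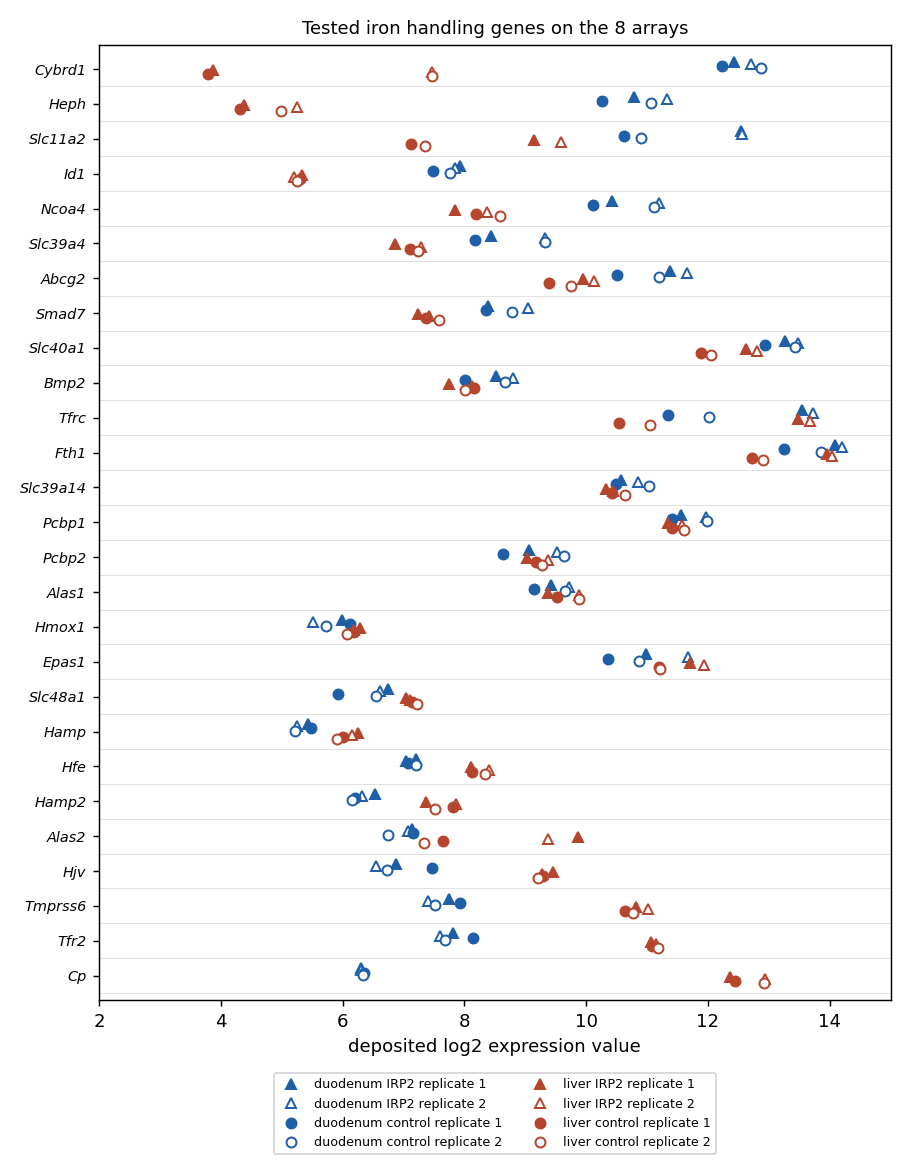
Deposited log2 values (horizontal axis) of the 27 tested iron handling genes, ordered by the difference between the tissues, 1 marker per array: blue for duodenum, red for liver, triangles for IRP2 and circles for control reactions, filled for replicate 1 and open for replicate 2. Cybrd1 and Heph at the top and Cp at the bottom separate by tissue, and the triangles of Tfrc and of liver Alas2 lie apart from the circles.

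Related genes with like functions took opposite sides in several pairs. Of 23 pairs, most listed with a member known from intestine first, 16 had both members tested. In 7 the first member was higher in duodenum and the second higher in liver. No pair ran the other way, a direction that the choice of pairs favours. The arginases were such a pair, with 5.76 ± 0.31 for mitochondrial Arg2 and -8.38 ± 0.15 for Arg1, whose duodenum level lay below the array median. The retinol-binding proteins Rbp2, of the enterocyte, and Rbp4, of plasma, differed by 2.87 and -6.75. The apolipoproteins Apoa4 and Apoa5 differed by 1.25 and -5.62, the triglyceride enzymes Mogat2 and Dgat2 by 3.18 and -1.09, and the glutathione peroxidases Gpx2 and Gpx1 by 2.21 and -1.28. The others were Heph with Cp and Cyp2c65 with Cyp2c29 (-5.78 ± 0.30). Hamp2, a hepcidin copy listed first against Hamp, was higher in liver (-1.34), and Hamp was not called. In the fatty acid binding pair, Fabp2 was higher in duodenum (1.57 ± 0.13), and Fabp1, at 13.29 to 13.73 and 13.88 to 14.07, was not called. The other probe set of Fabp1 was called higher in liver (-1.20 ± 0.14, adjusted p = 5.31e-05).

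Genes of lipid packaging fell on both sides. Of 21 tested, 7 were higher in duodenum and 6 higher in liver, against 11.8% and 9.25% of all tested genes. The triglyceride transfer protein Mttp was higher in duodenum (1.25 ± 0.18), as was Apobec1 (1.40 ± 0.16), which edits the Apob transcript. Apob was at 11.34, 11.95, 11.01 and 12.02 in duodenum and 11.91, 12.63, 12.13 and 12.64 in liver and Apoa1 at 12.64, 13.23, 12.48 and 13.42 and 13.45, 13.59, 13.37 and 13.50, and both overlapped and were not called (-0.75 ± 0.26 and -0.54 ± 0.20). Of 15 tested housekeeping genes, Ywhaz alone was called (1.39 ± 0.25), and the median of the list was -0.06.

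The calls were checked on the control reactions alone. On those 4 arrays, 1355 genes were called higher in duodenum (10.7%) and 1286 higher in liver (10.1%). Of the calls made on all 8 arrays, 1328 of 1493 and 1153 of 1175 were also made there. The IRP2 arrays share no array with this fit, but same-numbered IRP2 and control arrays of a tissue deviated together. They may come from the same pool of mice, so this check does not extend to other animals. Of the control calls, 1308 of 1355 and 1064 of 1286 were also called on the IRP2 arrays, and none changed sign. A dependence of the tissue difference on the reaction was called for no probe set in the limma fit without a block, where 354 had an unadjusted p under 0.05. That fit ignores that same-numbered IRP2 and control arrays deviated together. With tissue and replicate number as a block, such a dependence was called for 16 probe sets. The gene counts of the lists without both liver replicate 2 arrays differed by at most 2 calls from those on all arrays. On the control arrays alone, 10 listed genes lost their call: Alas2, Cyp2b10, Cyp4f14, Foxa2, Maf, Myo7b, Onecut1, Ptprc, Slc3a1 and Slc51b. Another 8 gained one: Cyp2c55 and Slc40a1 as higher in duodenum, and C1qa, Cyp51, Cyp7a1, Dcn, Enpep and Msmo1 as higher in liver. Of 76 other tested probe sets of called genes named by the rule, 11 were not called and none had the opposite call. They belonged to C1qb, Cpt1a, Cyp2b10, Dgat2, Gata6, Hgd, Hnf4g, Slco1b2 and Ywhaz. Of 53 other probe sets of named genes that were not called, 10 were called, in Acat1 and Fcgr2b (both higher in liver) and the 5 such genes given above.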

How the data were processed

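The deposited values of 8 Affymetrix arrays were used, on the log2 scale by their range. Per the submitters' processing notes and the series design text, the authors made probe set values with GCOS and with RMA or with MAS5 and quantile normalization. The sources used here do not say which of these the deposited log2 table holds, and give no versions. Control probe sets of the array (64 of 45101) were dropped, and probe sets at or above their own array's median on at least 4 of 8 arrays were tested (23478, 52.1%). Symbols came from the platform annotation, with 1 symbol for 34945 probe sets, more than 1 for 932 and no symbol for 9160. Of the 34945, 34741 matched the RefSeq gene table. A gene was read from its brightest probe set with 1 symbol (12696 genes tested of 18194 measured). limma 3.58.1 in R 4.3.3 fitted tissue with reaction as a covariate (4 arrays against 4) and was tested on simulated data first.

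The members and the 34 gene lists (563 entries for 555 different genes, with 503 entries measured and 461 tested) were chosen with earlier results of these data known, so the counts describe the lists and test nothing about them. Named genes were the 15 largest differences each way, the first 6 tested members of each list, all tested iron genes, all pair members and the 6 smallest interaction p-values. Prap1, Zg16, Alpi, Uroc1, Pros1, C6, Slc51a, Slc51b, Slc23a1, Fabp6, Fgf15, Cyp3a13, Cyp4b1, Cyp4f14, Tbx3, Esrra, Prom1, Adgre1, Col1a2, Col3a1, Pdgfra, Gzma, Itgae, Ptprc, Bub1b, Plk1, Mcm3, Hmmr, Hba-a1, Slc4a1, Epb42, Rhag, Ass1, Cyp2c55, Cyp51, Msmo1, Maf, Onecut1, Slc3a1, Hspa1b, Reg2 and Igfbp1 lie outside that rule and were named after their values were seen. Leaving out both liver replicate 2 arrays was added after seeing the data. Depth has no counterpart here: the number of arrays limits the precision.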

Additional observations from a re-analysis of the deposited data

Results flagged for a closer look

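For 5 of the 6 genes with the smallest p for it, the effect of the reaction (IRP2 minus control) differed between duodenum and liver when tissue and replicate number were fitted as a block in limma, with Benjamini-Hochberg adjusted p-values. Without the block, none passed (adjusted p = 0.996 for each). Alas2 had means of 7.11 (IRP2) and 6.96 (control) in duodenum and of 9.62 and 7.49 in liver, a difference between the effects of -1.98. Its standard error was 0.31 in the fit without the block, and its adjusted p was 0.000364 in the fit with the block. Shisa2 had 8.48 and 6.47 in duodenum and 4.90 and 4.32 in liver (1.42, adjusted p = 0.0028). B3gnt3 had 7.15 and 6.23 in duodenum and 5.03 and 5.22 in liver (1.11, adjusted p = 0.0365). Synm, a filament protein of muscle, had 7.58 and 7.15 in duodenum and 4.48 and 5.55 in liver (1.5, adjusted p = 0.00504). Ppp1r1b had 9.5 and 6.92 in duodenum and 5.73 and 5.30 in liver (2.15, adjusted p = 0.0028). Each mean covers 2 arrays. In liver the levels of Shisa2, B3gnt3, Synm and Ppp1r1b lay near or below the array median.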

How the results depend on the processing

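The number of probe sets higher in duodenum was 2494 and that higher in liver 1909. The limit on fold moved them: testing against 2-fold itself with treat gave 1458 higher in duodenum, requiring at least 4-fold gave 988 and 887, and no fold limit gave 5794 and 4423. On the control arrays alone, 2062 probe sets were higher in liver, and 3106 without a fold limit. Leaving out each array in turn gave 2288 to 2809 higher in duodenum and 1832 to 2014 higher in liver, and on the control arrays 1882 to 2892 and 1927 to 2322. Without both liver replicate 2 arrays the counts were 2679 and 1822. The labels do not say that replicate numbers mark shared material. Same-numbered IRP2 and control arrays deviated together over probe sets (correlation 0.700 in duodenum and 0.620 in liver), and same-numbered arrays of the 2 tissues correlated at 0.328 to 0.501. With the replicate number as a block the counts were 2501 and 1910, and all 1493 and 1175 gene calls were kept. With tissue and replicate number as a block, 16 probe sets differed between the tissues in the effect of the reaction, against 0 without it. Of 263 genes named by the rule, 239 kept their direction and their side of the threshold under every rescaling, block, left-out array and the control arrays alone. Of the rest, 14 lost a call and 10 gained one under at least 1 of these, and none reversed. Of 76 further probe sets of called genes, 65 had the same call and none the opposite, and of 53 of genes not called, 10 were called.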

Other observations

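The heat shock chaperone Hspa1b, picked after its values were seen, was higher on every replicate 2 array than on the replicate 1 array of the same tissue and reaction. It was at 8.54, 10.85, 8.30 and 10.72 in duodenum and at 8.77, 10.73, 9.19 and 10.84 in liver, in the order of IRP2 replicates 1 and 2 and control replicates 1 and 2, and its other 2 tested probe sets split the arrays the same way. The tissues did not separate by it, with a difference of -0.28 ± 0.68 (adjusted p = 0.774 from limma, Benjamini-Hochberg). The pancreas regenerating protein gene Reg2 ran the other way within duodenum, at 10.98, 7.87, 10.81 and 7.40, while the liver arrays lay between 5.61 and 6.09. Igfbp1, a hormone-binding protein secreted by liver, was higher on the replicate 2 arrays of liver, at 12.18 and 12.23 against 10.69 and 11.09 on the replicate 1 arrays, with a duodenum mean of 4.41.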
